A study of Homo sapiens with 24 samples.

Results

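The mRNAs described here encode 36 proteins of the mitochondrial matrix that are made on cytosolic ribosomes. They were chosen by gene symbol from general knowledge of the matrix, with earlier results of these data known. Each was found in 1 of the 28307 rows of the count table. By role they are 7 chaperones and proteases, 13 enzymes of pyruvate dehydrogenase and the TCA cycle, 6 enzymes of amino acid and one-carbon metabolism, 7 enzymes of fatty acid and propionyl-CoA oxidation, and 3 factors of mtDNA and mitochondrial translation. All 36 passed the filter on low counts in every fit, with 118 to 66343 counts per library.

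RNA was sequenced after affinity purification from HCT116, a human colorectal carcinoma line, with GFP knocked in at RUVBL1, an AAA+ ATPase, or at RPAP3, a scaffold of the R2TP co-chaperone that also holds RUVBL1 and RUVBL2. The purification used beads carrying an anti-GFP antibody fragment (GFP-Trap, here GFP beads) or agarose control beads without it (here uncoupled beads). RUVBL1 GFP-knock-in cells were untreated, or received puromycin (100 µg/mL for 30 min), CB-6644 (0.5 µM for 16 h) or both, and RPAP3 GFP-knock-in cells were untreated or received puromycin. Puromycin stops translation and releases nascent chains from ribosomes, and CB-6644 inhibits the ATPase activity of RUVBL1 and RUVBL2. Each of the 12 groups had 2 libraries, 24 in all, and the cells behind the uncoupled beads carried the same GFP allele as those behind the GFP beads. Each bait is represented by a single knock-in genotype, and the labels do not say whether it is 1 clone. Nor do they say that replicates came from separate cultures. The p-values therefore reflect the spread of these libraries alone, and part or all of it may be technical.

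Proteins of the matrix are encoded in the nucleus and carry an N-terminal presequence that directs them through the TOM complex of the outer membrane and the TIM23 complex of the inner membrane. Mitochondrial HSP70 pulls the chain inwards, a peptidase removes the presequence, and the HSP60 and HSP10 chaperonin helps the protein fold. Import can begin after translation has ended or while the chain is still on the ribosome. The comparison of GFP with uncoupled beads asks which of these mRNAs came down with each bait, and that of puromycin with untreated cells asks how recovery moved when nascent chains were released.

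Enrichment compares the GFP with the uncoupled beads of 1 treatment as a log2 ratio, given ± the standard error of the fit. A gene is called where edgeR's quasi-likelihood test gave a Benjamini-Hochberg adjusted p under 0.05 over all genes tested. Levels are given as CPM, a gene's counts relative to the scaled size of its library, with 1 scaling per line. They are shares of a library, so that more of one RNA and less of the others cannot be told apart, and levels of different genes are not compared.

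The RUVBL1 libraries held 9019665 to 33051512 counts each, and those of RPAP3 30844089 to 50394245. Log2 levels of replicate libraries correlated at 0.9325 to 0.9837 across genes. The fitted spread between replicates, as a coefficient of variation, was 0.263 in the RUVBL1 and 0.142 in the RPAP3 fit. Wider spread makes a difference of a given size harder to call, so counts of calls in the lines are not like measures. Among RUVBL1 libraries, CB-6644 replicate 2 and combined-drug replicate 1, both from GFP beads, stood apart on the first principal component, at 110.5 and 71.98, where the other 14 libraries of the line ran from -47.83 to 11.7. Replicate 2 of the untreated uncoupled beads stood apart on the next one at -89.4. Colon epithelial markers were present in every library (EPCAM at 88.1 CPM or more, KRT8 at 502 CPM or more). PTPRC, CD3E, HBB, PECAM1 and ALB, markers of blood, endothelial and liver cells, had at most 11 counts in any library, and COL1A1 and DES reached 34.7 and 10.4 CPM. The recovery of PRPF8, which encodes a core protein of the spliceosome, gives the scale of the assay, with an enrichment of 6.44 ± 0.45 for RUVBL1 and 5.13 ± 0.41 for RPAP3 in untreated cells.

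HSPD1 (HSP60) and HSPE1 (HSP10) encode the chaperonin that folds imported matrix proteins, and they are shown first because they are neighbours with a common start region and their values after puromycin, given below, had opposite signs in the RPAP3 line. On chromosome 2 of GRCh38.p14 (RefSeq), HSPD1 runs on the minus strand from 197486584 to 197500274 and HSPE1 on the plus strand from 197500379 to 197503449, so that 104 bases lie between their start sites. The plus strand between them is printed with a CACGTG E-box, the motif of MYC and USF factors, in capitals.
HSPD1 to HSPE1, chr2:197500275-197500378: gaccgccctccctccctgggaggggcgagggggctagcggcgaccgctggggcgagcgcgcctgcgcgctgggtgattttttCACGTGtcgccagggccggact
Both mRNAs start from this stretch, one on either side. A promoter window from 250 bases before to 50 bases after the start was matched for 33 of the 36 members, and CACGTG, read on both strands, lay in 6 of them (18.2%: ALDH18A1, HSPA9, HSPD1, HSPE1, LONP1 and PDHB), against 7.26% of 35116 RefSeq promoter windows. CCGGAAG, an ETS factor motif, lay in 4 (12.1% against 10.3%: DLST, LONP1, MDH2 and TUFM). The palindromic consensus of NRF1, a regulator of nuclear genes for mitochondrial proteins, lay in 1 (LONP1, 3.03% against 1.24%), and GAANNTTC, the core of a heat shock element, in 1 (HSPD1, 3.03% against 6.77%). The printed CACGTG lies in the windows of both HSPD1 and HSPE1 and was counted for each. Members were counted per gene and the background per window, so the shares are not like measures. No motif was tested against the measurements.

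In untreated cells 1 matrix mRNA was called with RPAP3 and none with RUVBL1. With RUVBL1 0 of 36 were called in either direction by edgeR's test, while 0.914% of the 15976 genes tested were called higher on GFP beads and 0.0188% lower. At an unadjusted p under 0.05 there were 3 members (8.33%, against 11.1% of all genes), and DESeq2 called 0. The median enrichment of the members was -0.01, against -0.05 for all genes, and 17 of 36 lay above 0 (47.2%, against 46% of all genes). Leaving out 1 library at a time moved the members' median between -0.16 and 0.17. HSPA9, the mitochondrial HSP70, stood at 475 and 291 CPM on GFP beads and 511 and 265 CPM on uncoupled beads, an enrichment of -0.02 ± 0.34. CS, citrate synthase, stood at 254 and 198 CPM against 193 and 196 CPM (0.22 ± 0.24). The libraries of both kinds of beads overlapped for HSPA9, and for CS both GFP libraries lay above both uncoupled ones by a margin the test did not call. The widest departures were 0.62 ± 0.24 for POLG and -0.58 ± 0.21 for CLPP, with adjusted p = 0.297 and 0.275.

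**Figure D1:**
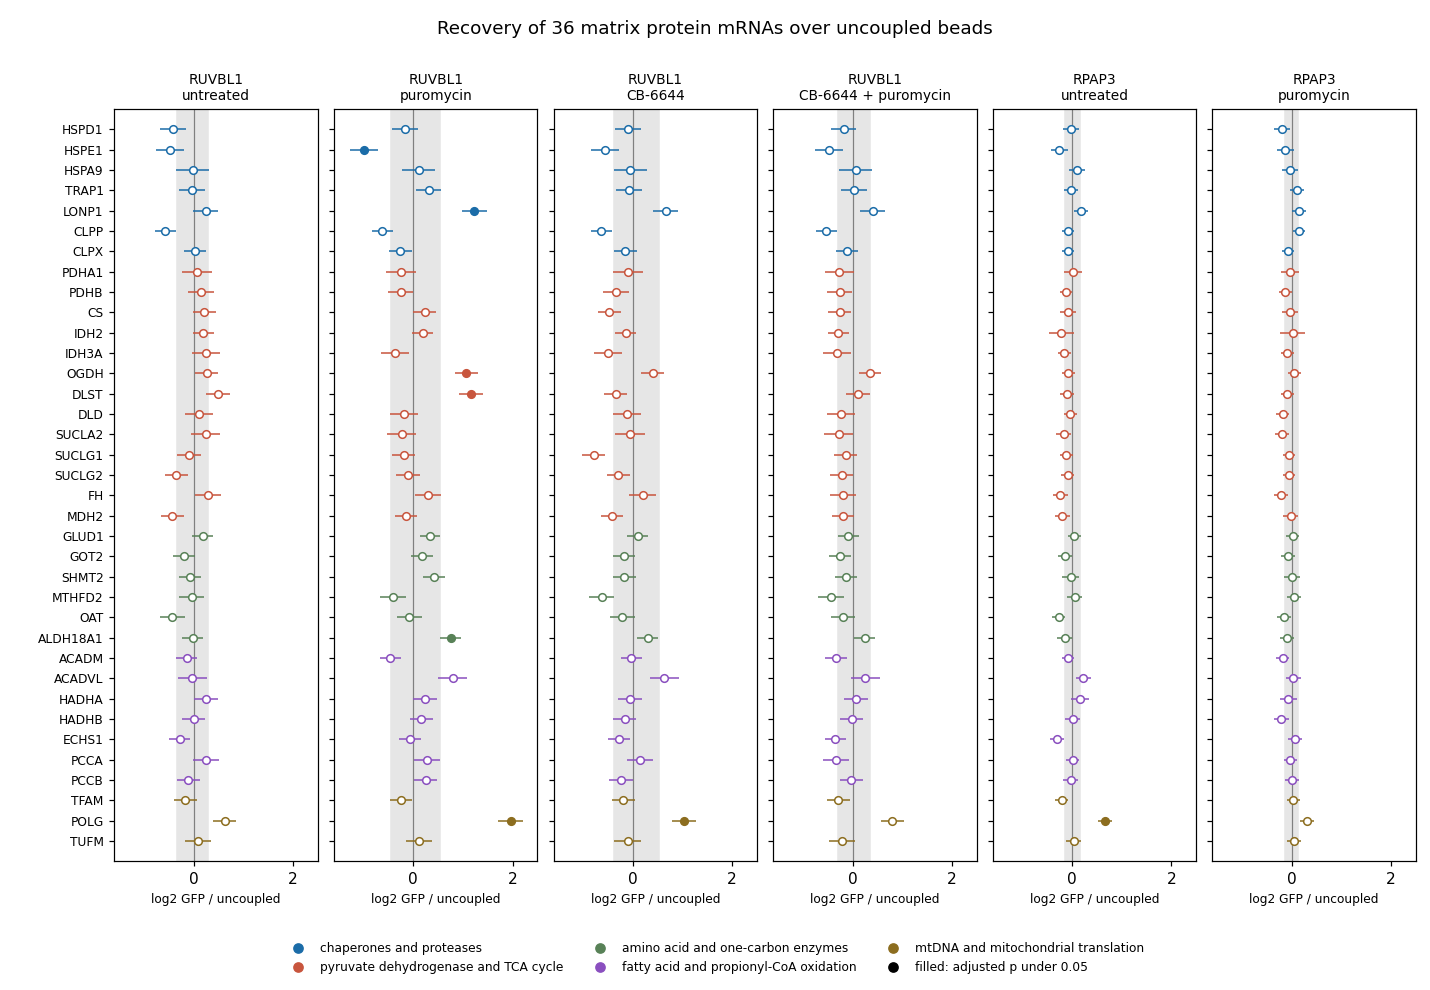
Enrichment (log2 of GFP over uncoupled beads, ± standard error, 2 libraries against 2) of the 36 mRNAs in each bait and treatment. Filled points passed an adjusted p under 0.05 and the grey band holds the middle quartiles of all genes tested. POLG is the rightmost point after puromycin in the RUVBL1 line (1.96), where 5 members were called higher and HSPE1 lower (-0.999).

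After puromycin RUVBL1 beads held 5 matrix mRNAs above the uncoupled beads and 1 below. POLG, LONP1, DLST, OGDH and ALDH18A1 were higher on GFP beads, and HSPE1 was lower. That is 13.9% and 2.78% of the members, against 9.95% of all genes called higher and 3.82% called lower. The members' median was 0.11 and that of all genes 0, and without replicate 2 of the GFP beads the members' median was -0.01. The other 30 members were not called, and their enrichments ran from -0.62 ± 0.21 for CLPP to 0.80 ± 0.29 for ACADVL.

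POLG encodes the catalytic subunit of the polymerase that copies mtDNA. Its level after puromycin was 229.5 and 344 CPM on RUVBL1 GFP beads and 80.2 and 67.1 CPM on uncoupled beads, so that the lower GFP library was well above both others. The enrichment was 1.96 ± 0.24 (adjusted p = 6.43e-05), a 3.89-fold difference. The gene lies on chromosome 15 from 89316320 to 89334824 and overlaps FANCI, a Fanconi anaemia gene. The strand setting of the counting was not given in the sources used here, so reads of the overlap could have been assigned to either gene or to neither. FANCI itself had an enrichment of 0.31 ± 0.21 in the same libraries (adjusted p = 0.355).

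LONP1, the AAA+ protease that degrades oxidised and unassembled matrix proteins, stood at 318 and 466 CPM on GFP beads against 159 and 177 CPM, an enrichment of 1.22 ± 0.25 (adjusted p = 0.00254). It lies on chromosome 19 from 5691834 to 5720452 and overlaps RPL36, a ribosomal protein gene, whose own enrichment was -0.79 ± 0.30. DLST (chromosome 14, 74881916 to 74903743) and OGDH (chromosome 7, 44606627 to 44709066) encode the E2 and E1 subunits of the 2-oxoglutarate dehydrogenase complex. DLST stood at 198 and 235 CPM against 101 and 92.3 CPM (1.16 ± 0.24, adjusted p = 0.00268). OGDH stood at 129 and 193 CPM against 81.8 and 72 CPM (1.07 ± 0.23, adjusted p = 0.00355). The E3 subunit of that complex, DLD, had an enrichment of -0.18 ± 0.28 and was not called. ALDH18A1, which makes the glutamate semialdehyde used for proline, stood at 117 and 147 CPM against 77.8 and 78.9 CPM (0.75 ± 0.21, adjusted p = 0.0202). In all 4 the GFP libraries lay above the uncoupled ones, as they did for 31.8% of all genes. The 4 were picked by their calls in these same libraries, so this adds no support.

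HSPE1 went the other way, at 7.26 and 6.94 CPM on GFP beads against 10.9 and 17.6 CPM (-0.999 ± 0.29, adjusted p = 0.0228). Both GFP libraries lay below both uncoupled ones, as they did for 30.7% of all genes. Its partner HSPD1 stood at 745.5 and 724 CPM against 859.7 and 798 CPM, an enrichment of -0.17 ± 0.26 that was not called. RefSeq names 28 pseudogenes of HSPE1 and 22 of HSPD1, so that reads of either could have been lost to copies or taken from them. HSPE1 also overlaps HSPE1-MOB4, which had its own row of counts but did not pass the filter on low counts. Reads of that overlap could have been assigned to either gene or to neither. The 6 calls fell to 1 without replicate 2 of the GFP beads, to 2 without replicate 1 of the uncoupled beads and to 3 without its replicate 2, and POLG was called in each. Scaling by upper quartile moved the split over all genes from 1590 higher and 611 lower to 1361 and 1181 and called 7 members, these 6 among them.

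CB-6644 left 1 member called with RUVBL1. POLG stood at 123 and 156 CPM on GFP beads against 73.2 and 63.8 CPM on uncoupled beads, an enrichment of 1.02 ± 0.24 (adjusted p = 0.0236). Over all genes 1.87% were called higher and 0.557% lower. The members' median was -0.15 and that of all genes 0.02, and 8 of 36 members lay above 0 (22.2%, against 51.2% of all genes). That position rested on 1 library and on the scaling. Without replicate 2 of the GFP beads, the library that stood apart, the members' median was 0.06 against -0.02 for all genes, with 20 of 36 above 0, and without replicate 1 it was -0.46 with 5 of 36 above 0. The call on POLG was lost without replicate 2 of the GFP beads or without either uncoupled library. Leaving out replicate 1 of the GFP beads raised the calls both among the members and over all genes. Scaling by total counts moved the median gene to 0.26, the median member to 0.09 with 25 of 36 above 0, and the split over all genes from 298 higher and 89 lower to 771 and 47, and called 2 members, LONP1 and POLG.

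With both drugs RUVBL1 beads held 0 members called by edgeR's test, against 0.557% of all genes called higher and 0% called lower. DESeq2 called 1 member, and 2 had an unadjusted p under 0.05 (5.56%, against 8.54% of all genes). POLG was again at the top, with 165 and 167 CPM against 93.3 and 97 CPM (0.81 ± 0.24, adjusted p = 0.192). The GFP libraries lay above the uncoupled ones, and the difference did not pass the test.

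RPAP3 beads from untreated cells held 1 member above the uncoupled beads, again POLG. It stood at 39.3 and 46.3 CPM against 29.7 and 24.3 CPM (0.67 ± 0.14, adjusted p = 0.0104), with 1.53% of 15202 genes called higher and 0.00658% lower. Medians were -0.09 for the members and -0.01 for all genes, and without replicate A of the uncoupled beads the members' median was -0.002. The call was lost under scaling by total counts, in a fit of all 24 libraries and without replicate B of the uncoupled beads. Leaving out replicate B of the GFP beads raised the calls both among the members and over all genes. The members' median was then -0.085 and that of all genes -0.002. After puromycin 0 members were called with RPAP3 by edgeR's test or DESeq2, 1 had an unadjusted p under 0.05 (against 4.14% of all genes), and 0.46% of all genes were called higher and 0% lower. All 36 enrichments then lay between -0.22 ± 0.14 for FH, fumarase, and 0.31 ± 0.14 for POLG.

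Tested as a change in enrichment, no drug gave a called difference for any member. Puromycin changed the RUVBL1 enrichment of 0 of 36 by edgeR's test (0.113% of all genes were called, 4 members and 9.94% of all genes had an unadjusted p under 0.05, and DESeq2 called 1). POLG had the greatest change, 1.34 ± 0.33 with adjusted p = 0.125, followed by LONP1 at 0.99 ± 0.35 (adjusted p = 0.336). CB-6644 changed 0 (0.188% of all genes, with 2 members and 11.8% of all genes at an unadjusted p under 0.05, DESeq2 0). When CB-6644 replicate 1 of the GFP beads was left out, members were called and calls over all genes rose too. The members' median change then moved from -0.10 to -0.28, and that of all genes from 0.04 to -0.01. Without replicate 2 of the untreated uncoupled beads, members were called for puromycin, and calls over all genes rose too. The members' median change for puromycin then moved from 0.08 to 0.18, and that of all genes from 0.05 to 0. Puromycin under CB-6644 changed 0 (0.0501% of all genes, with 0 members and 2.06% of all genes at an unadjusted p under 0.05, DESeq2 0). In the RPAP3 line puromycin changed 0 (0.25% of all genes, with 0 members and 3.1% of all genes at an unadjusted p under 0.05, DESeq2 0). Leaving out the untreated GFP library B raised the calls both among the members and over all genes. The members' median change there moved from 0.016 to 0.072, and that of all genes from -0.001 to 0.003.

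Between the RUVBL1 and RPAP3 lines the enrichment was called different for 4 members after puromycin and for none in untreated cells. Bait, line, depth and replicate set cannot be told apart in this comparison. Whether the difference between lines changed with puromycin was not tested. In untreated cells 0 of 36 were called (0.407% of 16695 genes, with 1 member and 8.97% of all genes at an unadjusted p under 0.05, DESeq2 0). After puromycin the RUVBL1 enrichment exceeded the RPAP3 enrichment by 1.68 ± 0.29 for POLG (adjusted p = 0.00119), 1.29 ± 0.30 for DLST (adjusted p = 0.0108), 1.11 ± 0.31 for LONP1 (adjusted p = 0.0321) and 1.05 ± 0.28 for OGDH (adjusted p = 0.0274). These are 11.1% of the members, against 3.98% of all genes called higher and 0.473% lower. In the RPAP3 line OGDH stood at 83.8 and 97.4 CPM on GFP beads and 91.9 and 83.2 CPM on uncoupled beads after puromycin, and DLST at 87.7 and 109 CPM against 112 and 97.4 CPM, with overlapping libraries for both. POLG kept its call without any 1 of the 8 libraries. Leaving out replicate 2 of the RUVBL1 GFP beads, replicate 1 of the RUVBL1 uncoupled beads or replicate A of either kind of RPAP3 beads left 1 call, leaving out replicate 2 of the RUVBL1 uncoupled beads or replicate B of either kind of RPAP3 beads left 2, and upper quartile scaling moved the split over all genes from 664 higher and 79 lower to 490 and 221 with 4 members called.

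Within 1 kind of beads, puromycin-treated and untreated cells differed for most of the matrix mRNAs in the RPAP3 line. On uncoupled beads of the RPAP3 line 29 of the 36 were higher after puromycin than in untreated cells, 1 (CLPP) was lower and 6 were not called. The median member was 1.13 higher on the log2 scale, while the median gene stood at -0.06. Over all 15202 genes 23.5% were called higher and 19.4% lower. In a comparison added after the data were seen, GFP beads of the same line gave 31 higher, 0 lower and a median of 1.12, against 22.1% and 17.5% of all genes and a median gene of -0.07. Both kinds of beads called 28 of the same members higher, and the share of all genes called higher on both was not counted.

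The mRNAs together took 3838 ± 325 CPM (SD, n = 2) on uncoupled beads of untreated RPAP3 cells and 8483 ± 942 CPM after puromycin. On GFP beads the sum was 3813 ± 60.8 CPM (SD, n = 2) and 8277 ± 444 CPM. As a share of raw counts it ran from 0.364% to 0.429% in the 4 untreated libraries and from 0.785% to 0.863% in the 4 puromycin libraries. These groups did not overlap.

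**Figure D2:**
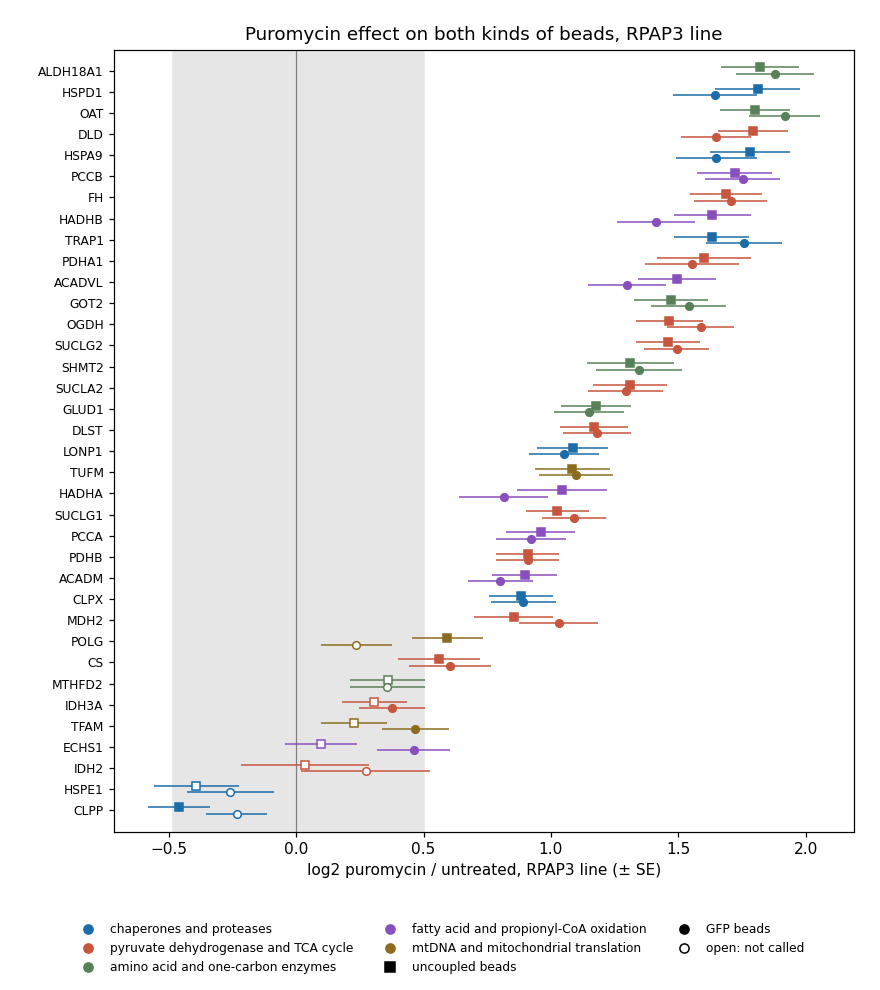
Log2 difference between puromycin and untreated cells (± standard error, 2 libraries against 2) for the 36 mRNAs on uncoupled beads (squares) and GFP beads (circles) of the RPAP3 line, ordered by the uncoupled beads. Filled symbols passed an adjusted p under 0.05, and the grey band holds the middle quartiles of all genes on uncoupled beads. ALDH18A1, HSPD1 and OAT lie near 1.8 at the top, and CLPP and HSPE1 lie below 0.

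Among the chaperones and proteases 5 of 7 were higher on uncoupled beads. HSPD1, the HSP60 chaperonin, stood at 442.5 and 359.9 CPM on uncoupled beads of untreated cells and at 1489 and 1326 CPM after puromycin, and on GFP beads at 461 and 329.6, then 1238 and 1233 CPM. It rose by 1.81 ± 0.17 (adjusted p = 2.27e-08) and 1.64 ± 0.17 on the log2 scale. Every puromycin library lay above every untreated one. Over all genes, both puromycin libraries lay above both untreated ones in 34.4% on uncoupled and 32.5% on GFP beads. HSPA9, the HSP70 motor of import, went from 274 and 260.2 to 1037 and 799 CPM on uncoupled beads and from 273 and 300.5 to 795 and 1002 CPM on GFP beads (1.78 ± 0.16 and 1.65 ± 0.16). TRAP1, the mitochondrial HSP90, went from 201 and 169 to 608 and 539.7 CPM and from 166 and 198 to 587 and 647 CPM (1.63 ± 0.15 and 1.76 ± 0.15). LONP1 rose by 1.08 ± 0.14 and CLPX, the unfoldase of the CLPXP protease, by 0.88 ± 0.12 on uncoupled beads.

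HSPE1 and CLPP had values below 0. HSPE1, the lid of the HSPD1 chaperonin, stood at 23.8 and 36.5 CPM on uncoupled beads of untreated cells and 23.3 and 22.7 CPM after puromycin, and at 25.2 and 25.2, then 22.8 and 19.4 CPM on GFP beads. Its differences were -0.39 ± 0.17 (adjusted p = 0.0661) and -0.26 ± 0.17 (adjusted p = 0.243), neither called. Upper quartile scaling, total count scaling and a fit with no filter each called it lower on uncoupled beads. The puromycin libraries lay below the untreated ones on either kind of beads, as for 37% of all genes on uncoupled and 36% on GFP beads. CLPP, the peptidase that CLPX feeds, went from 73.9 and 78.5 to 55.8 and 54.9 CPM on uncoupled beads (-0.46 ± 0.12, adjusted p = 0.00377) and from 74.7 and 68.6 to 59.7 and 62.2 CPM on GFP beads (-0.23 ± 0.12, not called). Upper quartile scaling called CLPP lower on GFP beads too. The difference between HSPE1 and HSPD1, or between CLPP and CLPX, was not tested.

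Of pyruvate dehydrogenase and the TCA cycle, 11 of 13 members were higher on uncoupled beads and 12 on GFP beads. DLD, the E3 subunit shared by the 2-oxo acid dehydrogenases, went from 67.3 and 52.5 to 215 and 199.7 CPM on uncoupled and from 57.3 and 59.6 to 177 and 189.6 CPM on GFP beads (1.79 ± 0.14 and 1.65 ± 0.14). FH went from 21.1 and 17.2 to 64.7 and 58.3 CPM and from 15.6 and 16.9 to 50.4 and 55.5 CPM (1.69 ± 0.14 and 1.71 ± 0.14). All puromycin libraries of both genes lay far above the untreated ones. OGDH went from 33.2 and 30.2 to 91.9 and 83.2 CPM and from 29 and 31.3 to 83.8 and 97.4 CPM (1.46 ± 0.13 and 1.59 ± 0.13). SUCLG2, the GTP-forming subunit of succinyl-CoA ligase, went from 45.8 and 40.3 to 126 and 111 CPM and from 40.5 and 40.5 to 113 and 115 CPM (1.46 ± 0.13 and 1.49 ± 0.13).

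CS, which condenses acetyl-CoA with oxaloacetate, had the smallest called difference of the group on uncoupled beads. It stood at 182 and 138 CPM on uncoupled beads of untreated cells and 259 and 213 CPM after puromycin, and at 174 and 128, then 224 and 235 CPM on GFP beads (0.56 ± 0.16, adjusted p = 0.0083, and 0.60 ± 0.16). Its call on GFP beads was lost in a fit of all 24 libraries, and that on uncoupled beads with upper quartile scaling, in the same fit, without replicate B of the untreated and without replicate A of the puromycin libraries. The NADP-dependent IDH2 was not called (0.04 ± 0.25 and 0.27 ± 0.25), and IDH3A, a subunit of the NAD-dependent enzyme, had 0.31 ± 0.13 on uncoupled beads, not called by edgeR's test but called by DESeq2, and 0.38 ± 0.13 on GFP beads, where it was called. The call on GFP beads was lost with upper quartile scaling, in a fit of all 24 libraries and without either puromycin library (adjusted p up to 0.462). PDHA1, SUCLA2, DLST, SUCLG1, PDHB and MDH2 rose by 1.60 ± 0.18, 1.31 ± 0.14, 1.17 ± 0.14, 1.02 ± 0.12, 0.91 ± 0.12 and 0.85 ± 0.15 on uncoupled beads.

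Amino acid and one-carbon enzymes had 5 of 6 higher on either kind of beads. OAT, ornithine aminotransferase, had the smallest adjusted p of all members (2.4e-09). It went from 53.4 and 44.5 to 182 and 159 CPM on uncoupled beads and from 37.7 and 43.4 to 147 and 159 CPM on GFP beads (1.80 ± 0.14 and 1.92 ± 0.14). ALDH18A1 went from 29.9 and 31.6 to 116 and 101 CPM and from 22.4 and 32.9 to 100.1 and 103 CPM, with 1.82 ± 0.15 as the greatest difference of the 36 on uncoupled beads. For both genes the untreated and puromycin libraries were far apart. GOT2, SHMT2 and GLUD1, which handle aspartate, serine and glutamate, rose by 1.47 ± 0.14, 1.31 ± 0.17 and 1.18 ± 0.14. MTHFD2, the folate dehydrogenase of the matrix, had 0.36 ± 0.15 (adjusted p = 0.0527) and was not called on either kind of beads in the main fit. DESeq2 and a fit with a replicate block called it higher on both kinds, and total count scaling on GFP beads.

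Fatty acid and propionyl-CoA oxidation had 6 of 7 higher on uncoupled and 7 of 7 on GFP beads. PCCB, a subunit of propionyl-CoA carboxylase, went from 23.5 and 19.4 to 73.2 and 68.1 CPM on uncoupled and from 18.9 and 23.1 to 63.9 and 77.4 CPM on GFP beads (1.72 ± 0.15 and 1.75 ± 0.15). Its partner subunit PCCA rose by 0.96 ± 0.14. HADHB and HADHA, the subunits of the trifunctional protein, rose by 1.63 ± 0.15 and 1.04 ± 0.18, and the acyl-CoA dehydrogenases ACADVL and ACADM by 1.49 ± 0.15 and 0.90 ± 0.13. ECHS1, the short-chain hydratase, was at 0.10 ± 0.14 on uncoupled beads, not called, and at 0.46 ± 0.14 on GFP beads, where it was called. That call was lost with upper quartile scaling, in a fit of all 24 libraries and without puromycin library B (adjusted p up to 0.188).

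Of the factors of mtDNA and mitochondrial translation 2 of 3 were higher on either kind of beads. TUFM, the elongation factor of mitochondrial ribosomes, went from 341 and 274 to 695 and 606.5 CPM on uncoupled and from 294 and 334 to 656 and 687 CPM on GFP beads (1.08 ± 0.15 and 1.10 ± 0.15). POLG rose by 0.59 ± 0.14 on uncoupled beads, a call lost in a fit of all 24 libraries, and had 0.23 ± 0.14 on GFP beads, where it was not called. FANCI, which POLG overlaps, rose by 1.10 ± 0.13 on uncoupled (adjusted p = 5.29e-07) and 0.91 ± 0.13 on GFP beads. Whether reads of the overlap entered the POLG value was not tested. TFAM, which packs mtDNA, was called on GFP beads (0.47 ± 0.13) and not on uncoupled ones (0.23 ± 0.13), and its call was lost in a fit of all 24 libraries and without puromycin library A. The difference between the kinds of beads was called for none of the 36, as given above. Of the 36, HSPE1, CLPP, IDH2 and MTHFD2 were not called higher on either kind of beads in the main fit.

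The differences on both kinds of beads were close gene by gene. Across the 36 members, which are not independent replicates, Pearson's r between the uncoupled and the GFP beads was 0.974 and Spearman's rho 0.963, with a median gap of 0.07 and a widest gap of 0.36. These comparisons share no library, and the labels do not say whether both kinds of beads received the same lysate. With 1 library left out at a time, 29 to 32 members were called on either kind of beads. Upper quartile scaling moved the median gene on uncoupled beads to -0.23, the median member to 0.95 and the split over all genes from 3577 higher and 2955 lower to 2862 and 4310, and total counts gave -0.14, 1.04, 3154 and 3477. On GFP beads the split over all genes went from 3363 higher and 2664 lower to 2732 and 3968 with upper quartile scaling.

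**Figure D3:**
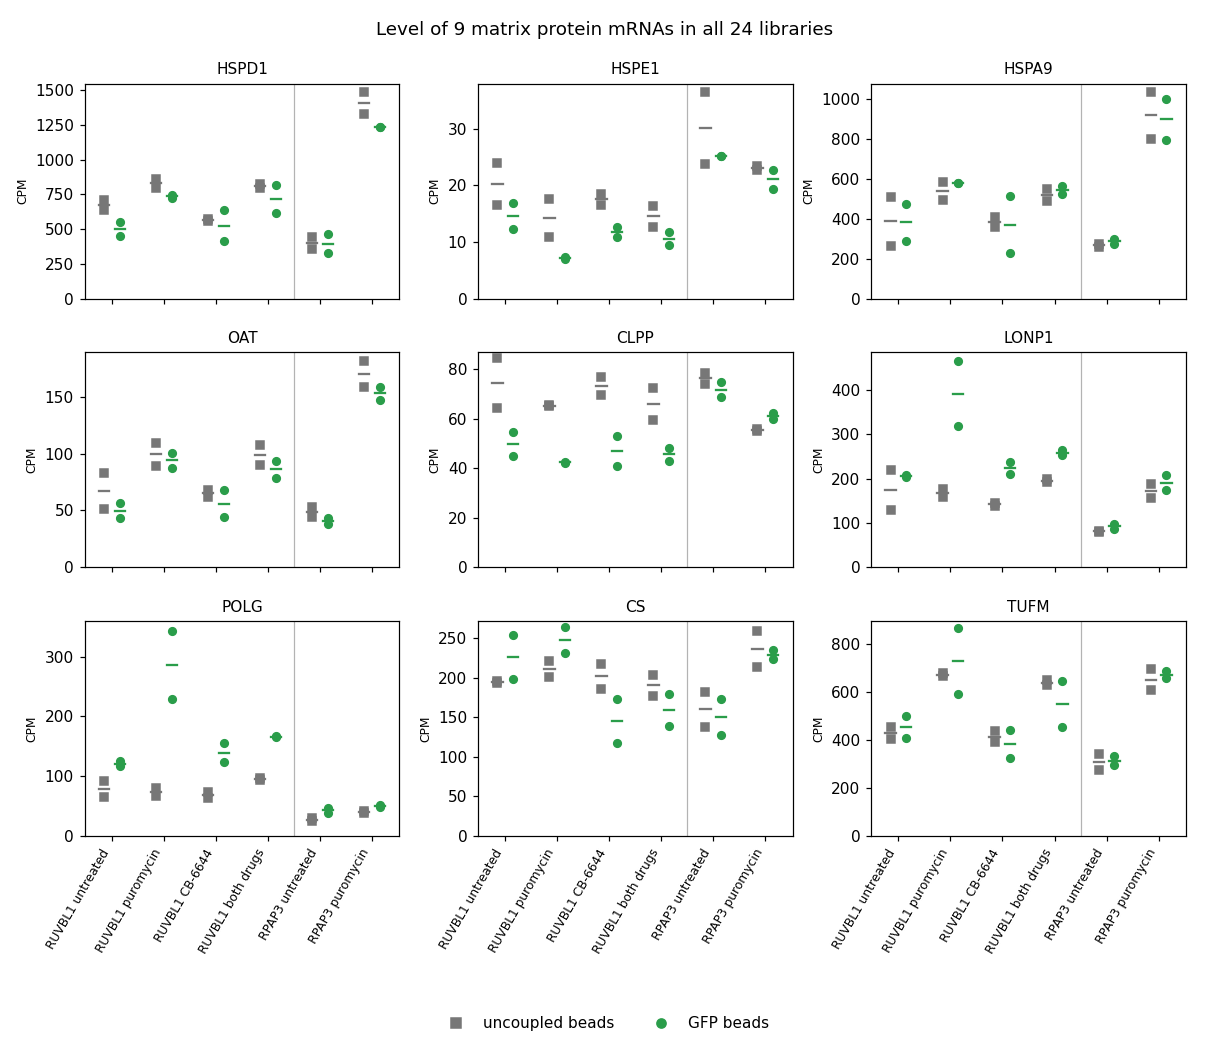
Levels (CPM, linear axis from 0) of 9 of the mRNAs in all 24 libraries, with uncoupled beads as grey squares, GFP beads as green circles and short lines at the mean of 2 libraries. In the RPAP3 line all 9 separate puromycin from untreated on both kinds of beads, with HSPE1 and CLPP lower after puromycin. POLG separates GFP from uncoupled beads in every treatment of both lines. Not every such gap was called. CPM of the left 4 and the right 2 groups come from separate scalings and are not compared.

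In the RUVBL1 line most members also lay above 0 after puromycin. On uncoupled beads 0 of 36 were called, as were 0% of all genes. With the wider spread between replicates in this line, that count does not show that an effect was absent. At an unadjusted p under 0.05 there were 10 members and 9.16% of all genes, and DESeq2 called 1 member. The median member lay at 0.36 and the median gene at -0.06, with 31 of 36 above 0 (86.1%, against 44.8% of all genes). In 28 of 36 (77.8%) both puromycin libraries lay above both untreated ones, against 19.7% of all genes. Without replicate 2 of the untreated uncoupled beads, the library that stood apart, the median member lay at 0.23 with 32 of 36 above 0.

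TRAP1 had the smallest p of the members (0.87 ± 0.26, adjusted p = 0.481). HSPD1 had 0.30 ± 0.26 and TUFM 0.65 ± 0.27, and their puromycin libraries lay above the untreated ones. HSPE1 stood at 16.6 and 23.9 CPM and then at 10.9 and 17.6 CPM (-0.51 ± 0.28), with overlapping libraries.

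On GFP beads of the RUVBL1 line, a comparison added after the data were seen, 9 members rose after puromycin and 1 fell. They were TRAP1 (1.22 ± 0.26), POLG (1.25 ± 0.24), OGDH (1.16 ± 0.23), ACADVL (1.09 ± 0.30), ALDH18A1 (0.95 ± 0.21), LONP1 (0.93 ± 0.25), OAT (0.92 ± 0.25), DLST (0.91 ± 0.24) and PCCB (0.86 ± 0.23), with HSPE1 (-1.03 ± 0.29) lower. That is 25% and 2.78% of the members, against 4.09% of all genes higher and 0.951% lower. POLG went from 117 and 125 to 229.5 and 344 CPM, and HSPE1 from 12.3 and 16.8 to 7.26 and 6.94 CPM, both without overlap. Over all genes 26.4% were apart and higher, and 25.8% apart and lower. Of the 9, all but POLG were also higher on both kinds of RPAP3 beads. The median member lay at 0.45 and the median gene at -0.02, and the members' median was 0.72 without replicate 1 and 0.29 without replicate 2 of the untreated libraries. The 10 calls became 0 without replicate 1 of the untreated or replicate 2 of the puromycin libraries, 1 without replicate 2 of the untreated and 6 without replicate 1 of the puromycin libraries, and upper quartile scaling moved the split over all genes from 653 higher and 152 lower to 523 and 301 with 9 members called.

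Under CB-6644 the values pointed the same way and none passed. CB-6644 alone, against untreated cells on uncoupled beads, called 0 members and 0% of all genes (0 members and 5.38% of all genes at an unadjusted p under 0.05, DESeq2 0), with the median member and the median gene both at -0.04. Puromycin on top of CB-6644, compared with CB-6644 alone after the data were seen, called 0 members on uncoupled beads, as of all genes 0%. The members' median was 0.39 and 32 of 36 lay above 0 (88.9%, against 50.1% of all genes). An unadjusted p under 0.05 was reached by 11 (30.6%, against 8.9%), and DESeq2 called 1. On GFP beads it called 0 by edgeR's test against 0.0939% of all genes, with 7 members (19.4%) and 7.74% of all genes at an unadjusted p under 0.05 and 2 members called by DESeq2. The median there was 0.34 and 34 of 36 lay above 0 (94.4%, against 49.6% of all genes). Without CB-6644 replicate 1 of the GFP beads the median was 0.53 with 33 of 36 above 0. Members were then called, and calls over all genes rose too. Without CB-6644 replicate 2, the library that stood apart, the median was 0.17 and 26 of 36 lay above 0. Without combined-drug replicate 2 the median was 0.18, also with 26 above 0.

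The RUVBL1 levels of the members followed above library by library in the RPAP3 line show how far the groups overlapped. Most of these were chosen for their small adjusted p on uncoupled RPAP3 beads. Both puromycin libraries lay above both untreated ones in 28 of 36 on uncoupled and 26 on GFP beads (19.7% and 26.4% of all genes). Under CB-6644 it was 28 and 16 (28.8% and 16.1% of all genes). TRAP1 stood on uncoupled beads at 343 and 244.5 CPM in untreated cells, 551 and 523 after puromycin, 284 and 284 after CB-6644 and 511 and 526 after both, and on GFP beads, in that order, at 305 and 267, 541 and 788, 303 and 236 and 463 and 597 CPM. OAT stood on uncoupled beads at 82.7 and 51.2 CPM in untreated cells, 109.5 and 89.5 after puromycin, 62.1 and 68.3 after CB-6644 and 89.6 and 107.5 after both, and on GFP beads, in that order, at 56.4 and 43, 87.7 and 101, 67.8 and 44 and 78.7 and 93.8 CPM. OGDH stood on uncoupled beads at 71 and 49 CPM in untreated cells, 81.8 and 72 after puromycin, 59.7 and 60 after CB-6644 and 78 and 81.2 after both, and on GFP beads, in that order, at 74.4 and 69.5, 129 and 193, 79.2 and 78.6 and 89.3 and 114 CPM. For these the puromycin libraries lay above those without puromycin on either kind of beads, with and without CB-6644. SUCLG2 stood on uncoupled beads at 69.7 and 57.6 CPM in untreated cells, 88.6 and 79.1 after puromycin, 61.2 and 61.2 after CB-6644 and 88.2 and 96.7 after both, and on GFP beads, in that order, at 57.8 and 42.3, 77.7 and 77.8, 57.1 and 42.7 and 60 and 98.8 CPM. PCCB stood on uncoupled beads at 36.2 and 27 CPM in untreated cells, 44.6 and 45.1 after puromycin, 27.9 and 27 after CB-6644 and 36.2 and 39.2 after both, and on GFP beads, in that order, at 34.5 and 24.4, 46.4 and 60.5, 24.4 and 22.1 and 31.6 and 42.4 CPM. TUFM stood on uncoupled beads at 453 and 403 CPM in untreated cells, 678 and 665 after puromycin, 390.5 and 436 after CB-6644 and 627.5 and 648 after both, and on GFP beads, in that order, at 499 and 406, 591 and 865, 442.5 and 324 and 453 and 643 CPM. The same held for these.

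For the remaining members of that set some groups overlapped. HSPD1 stood on uncoupled beads at 708 and 634 CPM in untreated cells, 859.7 and 798 after puromycin, 571 and 558 after CB-6644 and 797 and 822 after both, and on GFP beads, in that order, at 554 and 450.5, 745.5 and 724, 639.8 and 411.5 and 613 and 814 CPM. FH stood on uncoupled beads at 35.7 and 27.8 CPM in untreated cells, 56.5 and 51.1 after puromycin, 35.2 and 24.1 after CB-6644 and 55.3 and 52.4 after both, and on GFP beads, in that order, at 49 and 29, 58.4 and 73.4, 38.6 and 29.1 and 38.6 and 55.1 CPM. ALDH18A1 stood on uncoupled beads at 77 and 61.8 CPM in untreated cells, 77.8 and 78.9 after puromycin, 59.6 and 53 after CB-6644 and 69.1 and 75.6 after both, and on GFP beads, in that order, at 71.4 and 65.3, 117 and 147, 74.7 and 63.6 and 74.3 and 96.8 CPM. In these the groups were apart, with puromycin higher, except on GFP beads under CB-6644. HSPA9 stood on uncoupled beads at 511 and 265 CPM in untreated cells, 583 and 494 after puromycin, 411 and 357 after CB-6644 and 490.4 and 549 after both, and on GFP beads, in that order, at 475 and 291, 579.7 and 581.5, 512 and 229 and 525 and 562.5 CPM. It overlapped between puromycin and untreated libraries on uncoupled beads and was apart in the other comparisons. DLD stood on uncoupled beads at 93.1 and 49.6 CPM in untreated cells, 117 and 102 after puromycin, 70.8 and 60.6 after CB-6644 and 104 and 102 after both, and on GFP beads, in that order, at 91.7 and 62.2, 101.5 and 91.2, 77.1 and 44.2 and 76.5 and 98.9 CPM. Its groups overlapped on GFP beads, with and without CB-6644, and were apart on uncoupled beads. CS stood on uncoupled beads at 193 and 196 CPM in untreated cells, 201 and 222 after puromycin, 186 and 218 after CB-6644 and 177 and 204 after both, and on GFP beads, in that order, at 254 and 198, 231 and 264, 173 and 117 and 139 and 179 CPM. It was apart only between puromycin and untreated libraries on uncoupled beads, where puromycin was higher.

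Set against each other, the lines differed for some members in what puromycin did on uncoupled beads. In a fit of all 24 libraries, added after the data were seen, the difference after puromycin on uncoupled beads was lower in the RUVBL1 than in the RPAP3 line for 7 members and higher for 0, against 2.67% of all 16695 genes lower and 0.485% higher. They were ALDH18A1 at -1.53 ± 0.28, HSPD1 at -1.38 ± 0.33, HADHB at -1.25 ± 0.29, OAT at -1.11 ± 0.31, PCCB at -1.10 ± 0.30, GOT2 at -1.03 ± 0.28 and OGDH at -0.99 ± 0.28. The median member lay at -0.64 and the median gene at 0.01, and 6 of 36 lay above 0 (16.7%, against 50.7% of all genes). Without replicate 1 of the RUVBL1 untreated libraries the members' median was -0.39. Line, bait, depth and replicate set go together, so that none of them can be told apart in this difference. The 7 calls became 1 without replicate 1 of the RUVBL1 untreated, either RUVBL1 puromycin, replicate B of the RPAP3 untreated or replicate A of the RPAP3 puromycin uncoupled library, 2 without replicate B of the last, and 14 without replicate 2 of the RUVBL1 untreated library, and ALDH18A1 was called in each.

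Genes outside the 36 show how far the pattern reached. Of 10 cytosolic counterparts of the members, such as MDH1, IDH1 and ACO1, 9 were higher after puromycin on uncoupled RPAP3 beads with a median of 1.54, and 9 on GFP beads with a median of 1.56. ACO1, the cytosolic aconitase, rose by 2.1 ± 0.14, MTHFD1, the cytosolic folate enzyme, by 2.09 ± 0.14 and GOT1, the cytosolic aspartate aminotransferase, by 1.95 ± 0.17 on uncoupled beads. EEF1A1, the cytosolic relative of TUFM, was at -0.08 ± 0.19 and not called. Both medians exceed that of the members, so the rise was not limited to mRNAs of matrix proteins in these lists. The difference between lists was not tested.

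The other mitochondrial lists are read against the 23.5% of all genes called higher and the 19.4% called lower on uncoupled RPAP3 beads. Of 38 further matrix enzymes measured, 27 were higher and 3 lower on uncoupled RPAP3 beads (median 0.82). Genes of mtDNA expression had 18 of 22 higher and 0 lower (median 0.95), and AAA+ proteins of the mitochondrion had 5 of 8 higher and 0 lower (median 0.81). Protein import and presequence processing had 7 of 17 higher and 4 lower, with a median of 0.04 near that of all genes. On GFP beads the same lists had 27, 17, 5 and 8 higher and 3, 0, 0 and 2 lower, in that order. In the enrichment of RUVBL1 after puromycin, where 9.95% of all genes were called higher and 3.82% lower, further matrix enzymes had 4 of 39 higher, mtDNA expression 4 of 22, AAA+ proteins 2 of 8, protein import 1 of 17 lower and cytosolic counterparts 0 of 10, counts that were not tested against that background.

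**Figure D4:**
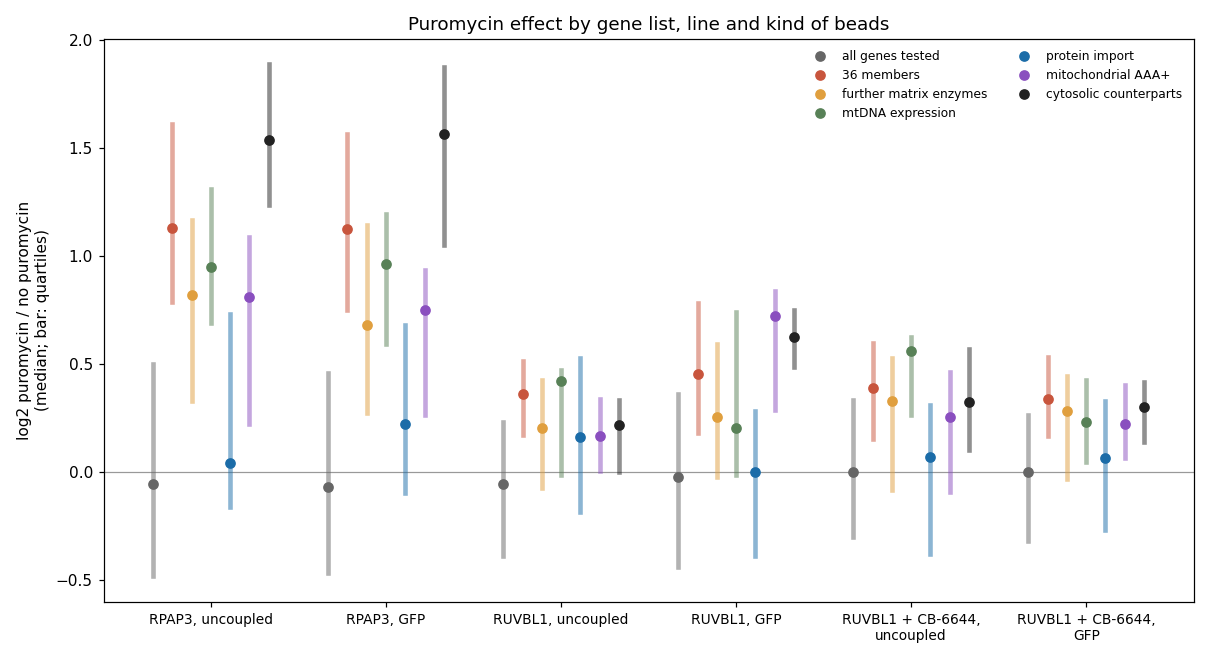
Median log2 difference after puromycin (points) and middle quartiles (bars) for all genes tested, the 36 members and 5 other gene lists, by line, kind of beads and CB-6644. In the RPAP3 line the members (1.13 and 1.12) lie above the other mitochondrial lists and below the cytosolic counterparts (1.54 and 1.56), and the members' medians in the RUVBL1 line run from 0.34 to 0.45.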

How the data were processed

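The authors deposited 1 table of raw read counts per gene for all 24 libraries, aligned to hg38 with TopHat2 2.1.1 and counted with featureCounts 2.0.3 after bcl2fastq 2.20.0.422, FastQC 0.11.9 and MultiQC 1.12, per the submitters' processing notes. The strand and multi-mapping settings of the counting are not given in the sources used here. Of 28307 rows, 27790 had a gene ID and none began with MT-.

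Counts were tested in R 4.3.3 with edgeR 4.0.16 (quasi-likelihood, TMM scaling, genes with low counts removed) in 1 fit per line, 15976 genes for RUVBL1 and 15202 for RPAP3. Differences between lines came from a fit of all 24 libraries with 16695 genes. Standard errors are the log2 difference divided by the root of the F statistic. Alternatives were upper quartile or total count scaling, no filter, a replicate block, DESeq2 1.42.0, all 24 libraries and leaving out each library in turn.

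The 36 members, the gene lists and the tests were chosen with earlier results of these data known. Values in every library are given for the 10 called members with the smallest adjusted p, which include HSPD1 and HSPA9, and for CS and TUFM. POLG, LONP1, DLST, HSPE1 and CLPP were added after their values were seen, with the libraries of the comparisons described. Replicate numbers were not used to pair libraries.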

Additional observations from a re-analysis of the deposited data

Results flagged for a closer look

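After puromycin the enrichment over uncoupled beads differed between the RUVBL1 and RPAP3 lines for 4 members, by edgeR's test of the difference itself over all genes. The RUVBL1 value exceeded the RPAP3 value by 1.68 ± 0.29 for POLG, 1.29 ± 0.30 for DLST, 1.11 ± 0.31 for LONP1 and 1.05 ± 0.28 for OGDH on the log2 scale.

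The difference between puromycin and untreated cells on uncoupled beads also differed between the lines, in a test added after the data were seen. It was lower in the RUVBL1 line by -1.53 for ALDH18A1, -1.38 for HSPD1, -1.25 for HADHB, -1.11 for OAT, -1.10 for PCCB, -1.03 for GOT2 and -0.99 for OGDH. Line, bait and set of libraries cannot be told apart in either test.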

How the results depend on the processing

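Of 225 recomputed counts of called members, 174 stayed within 1.5 times the reported count or kept a count of 0, 26 were lower and 25 were higher. Such counts do not show whether a direction reversed. Followed 1 by 1, the members called in the main fit had 0 reversals of direction in these recomputations. Under CB-6644 the RUVBL1 enrichment had 1 called member, and 2 with upper quartile scaling, with total counts or with no filter, 3 with DESeq2 and 4 in a fit of all 24 libraries. With both drugs it had 0, and 1 with DESeq2 or all 24 libraries. The RPAP3 enrichment in untreated cells had 1, and 0 with total counts or all 24 libraries. The change of the RUVBL1 enrichment with puromycin had 0, and 1 with no filter, DESeq2 or all 24 libraries. DESeq2 gave 1 in place of 0 for puromycin on RUVBL1 uncoupled beads, with and without CB-6644, and 2 in place of 0 on GFP beads under CB-6644. The difference between lines on uncoupled beads had 7, and 11 with upper quartile scaling, total counts or no filter and 16 with DESeq2. Leaving out 1 library at a time gave 1 to 5 for the RUVBL1 enrichment after puromycin, 0 to 8 after CB-6644, 0 to 3 for untreated RPAP3, 0 to 2 for the change with puromycin in the RUVBL1 line, 0 to 7 for that with CB-6644 and 0 to 1 for that in the RPAP3 line. It gave 1 to 4 for the difference between baits after puromycin, 0 to 6 on RUVBL1 GFP beads, 0 to 9 on these under CB-6644, 1 to 14 for the difference between lines and 29 to 32 on either kind of RPAP3 beads. Deviations of same-numbered libraries correlated at -0.412 to 0.27 over 28 pairs of groups in the RUVBL1 line, 4 of them over 0.1, and at -0.117 to 0.159 over 6 in the RPAP3 line, 2 of them over 0.1. Those 2 were untreated with puromycin on GFP beads (0.159) and on uncoupled beads (0.139), and since not every pair was over 0.1 the libraries were not paired. With the replicate block the counts were 7 for the RUVBL1 enrichment after puromycin, 31 and 32 on uncoupled and GFP beads of the RPAP3 line, 11 on RUVBL1 GFP beads, 8 for the difference between lines and 4 for that between baits, and no count moved by over 1.5 times. With 2 libraries a group, leaving 1 out left a lone library assumed to vary like the other groups. Calls over all genes moved as well, and the counts of members were not set against them. The cause of these shifts was not tested.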
